A study of Mus musculus with 4 samples.

Results

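The proteasome genes of mouse were described here in cultured pieces of the AGM (aorta, gonad and mesonephros), the embryonic tissue in which blood stem cells arise. They were chosen by name, as every gene whose symbol is Psma, Psmb, Psmc, Psmd or Psme followed by a number, without pseudogenes, which gave 46 of the 49997 genes counted. Poly(A) RNA was sequenced in 4 libraries from C57BL/6J explants held for 48 hours on membranes in a stem cell medium with hydrocortisone. The untreated group had 2 libraries. The other group, also of 2, was kept for the same 48 hours with 5 µM CCCP, a protonophore that dissipates the proton gradient across the inner mitochondrial membrane, and the study asks how mitochondrial activity bears on blood stem cell maturation. The labels differ on the embryos, of days 10.5 and 11.5 in the account of culture and of day 10.5 alone in the design text, which also speaks of cells selected for Kit. Per the account of extraction, RNA came from the explants. Nothing says whether embryos were pooled or whether the 2 libraries of a group came from separate cultures, so p-values measure the spread between libraries, which may be technical.

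The proteasome is the protease that degrades most short-lived and damaged proteins of the cytosol and nucleus. Its core particle (20S) is a barrel of stacked rings, with outer rings of alpha subunits and inner rings of beta subunits, and the active sites belong to the beta subunits Psmb5, Psmb6 and Psmb7. Psmb8, Psmb9 and Psmb10 take their places in the immunoproteasome, which is abundant in blood cells and induced by interferon gamma. The regulatory particle (19S) binds the core. It has a base with a ring of ATPases, the Psmc subunits, which unfold the substrate, and a lid of non-ATPase Psmd subunits that includes the deubiquitinase Psmd14. Genes of the core and regulatory particles are known to be induced together, through antioxidant response elements in their promoters, by the transcription factor Nfe2l1 when proteasome capacity falls short.

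By role, the 46 genes held 7 alpha and 7 beta subunits of the core, 3 immunoproteasome subunits, 6 ATPases and 11 non-ATPase subunits of the regulatory particle, and 5 genes of activator subunits. The name pattern also took in 3 chaperones of regulatory particle assembly (Psmd5, Psmd9 and Psmd10), 2 tissue-restricted core subunits (Psma8 of germ cells and Psmb11 of the thymus) and 2 genes that encode no subunit. The latter were Psmc3ip, a recombination factor, and Psme3ip1, which binds the activator Psme3. All 46 passed the filter on low counts.

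Of the 46 genes, 39 had promoter windows in the RefSeq table of build GRCm38.p6, with 43 windows of 300 bases in all, from 250 bases before to 50 after a start site. The core of the antioxidant response element was searched as TGANNNNGC on both strands. It was found for 23 of the 39 genes, in 58.1% of their windows, against 41.3% of all 32851 windows of that length. By class, it was in 9 of the 12 core windows and in 6 of the 15 regulatory ones, the latter near the share of all windows. The element is short enough to be common. The 250 bases before the start are shown for 3 genes, Psmb3, the core gene with the highest fold change here, Psmb6, a catalytic subunit, and Psmc6, the regulatory gene with the lowest, with the element in capitals.
Psmb3, chr11:97703184-97703433, plus strand: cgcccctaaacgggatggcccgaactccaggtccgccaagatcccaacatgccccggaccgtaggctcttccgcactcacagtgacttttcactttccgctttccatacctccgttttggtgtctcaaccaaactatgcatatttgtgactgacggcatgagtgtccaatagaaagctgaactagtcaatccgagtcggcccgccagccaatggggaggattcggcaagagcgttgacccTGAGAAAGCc
Psmb6, chr11:70525107-70525356, plus strand: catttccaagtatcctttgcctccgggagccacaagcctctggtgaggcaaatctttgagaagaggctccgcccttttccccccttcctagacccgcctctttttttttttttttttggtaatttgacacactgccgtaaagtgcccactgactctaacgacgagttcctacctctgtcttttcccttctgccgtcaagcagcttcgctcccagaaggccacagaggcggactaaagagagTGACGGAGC
Psmc6, chr14:45329574-45329823, plus strand: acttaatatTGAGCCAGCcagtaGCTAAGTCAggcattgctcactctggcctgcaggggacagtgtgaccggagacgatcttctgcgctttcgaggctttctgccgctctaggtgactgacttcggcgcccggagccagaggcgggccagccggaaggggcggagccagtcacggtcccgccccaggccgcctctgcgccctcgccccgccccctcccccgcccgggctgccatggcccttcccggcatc

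The window of Psmc6 held the element 2 times and that of Psmb3 1 time, so the core and regulatory genes at either end of the range both held it. Over the 25 core and regulatory genes with a window, the 14 with the element had a median log2 fold change (CCCP over untreated) of 0.30 and the 11 without it a median of 0.31. For the immunoproteasome, sites of the interferon response were searched, the gamma-activated site as TTCNNNGAA and the core of the interferon-stimulated response element as 2 GAAA words 2 bases apart, on both strands. All 3 immunoproteasome genes had a window. Psmb8 alone held the first of these sites, found in 8.30% of all windows, and none of the 3 held the second, found in 3.44%. The window of Psmb8 is shown with the site in capitals, and that of Psmb9, which has no capitals, for comparison.
Psmb8, chr17:34197945-34198194, plus strand: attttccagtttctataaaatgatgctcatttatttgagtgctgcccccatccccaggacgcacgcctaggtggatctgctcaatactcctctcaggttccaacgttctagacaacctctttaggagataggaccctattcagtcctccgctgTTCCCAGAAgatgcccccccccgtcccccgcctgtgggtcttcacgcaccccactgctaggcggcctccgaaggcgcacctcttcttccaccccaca
Psmb9, chr17:34187331-34187580, minus strand: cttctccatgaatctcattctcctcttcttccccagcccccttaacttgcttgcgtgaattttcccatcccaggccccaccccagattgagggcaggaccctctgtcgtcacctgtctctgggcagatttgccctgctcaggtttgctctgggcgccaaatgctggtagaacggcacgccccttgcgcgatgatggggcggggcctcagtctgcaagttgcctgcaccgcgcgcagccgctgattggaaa
A match is a string of letters and not a shown binding site, and no match says only that these letters are not in the window.

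Library totals were 48216849 and 37360968 counts in untreated replicates 1 and 2, and 48827826 and 37579087 counts in CCCP replicates 1 and 2. Kit was read at 47.6 to 63.2 CPM (read counts scaled to library size) and Ptprc, the pan-leukocyte antigen CD45, at 3.39 to 6.85 CPM. The 8 endothelial markers summed to 468 to 607 CPM and the 6 mesenchymal markers to 2474 to 3993 CPM, so the libraries held RNA of many cell types beside the one named in the labels. The sums of other lists differed between the groups without overlap. The 10 markers of blood stem and progenitor cells summed to 210 and 233 CPM untreated and to 174 and 201 CPM with CCCP. None of the 9 tested lay above 0 in log2 fold change. Singly, only 2 of the 9 were lower in both CCCP libraries than in both untreated ones, against 24.8% of all genes tested. The 6 erythroid markers summed to 407 and 345 CPM untreated and to 479 and 559 CPM with CCCP. Most of that sum was Hba-a1, and 4 of the 6 lay above 0 in log2 fold change and 2 below. Singly, 2 were higher without overlap and 1 lower, against 24.0% and 24.8% of all genes tested. The 5 neural markers summed to 684 and 659 CPM untreated and to 818 and 771 CPM with CCCP, with 4 above 0 and 1 below (Elavl4, -0.40). Of these 5, 3 were higher without overlap and 1 lower. The 9 hepatic markers, among them Alb and Afp, summed to 1689 and 963 CPM untreated and to 50.6 and 104 CPM with CCCP, below both untreated libraries for 9 of 9. In such bulk RNA, fewer cells of a type and less RNA per cell cannot be told apart. The part of cell composition in the proteasome values was not tested.

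Core and regulatory subunits were among the more abundant transcripts of the explants. The mean level of the 14 core genes lay between the 78.6 and 94.6 percentile of the 19837 genes tested, and that of the 17 regulatory genes between the 84.6 and 98.1 percentile. All 46 genes together took 0.408% and 0.493% of the counts in untreated replicates 1 and 2, and 0.509% and 0.537% in CCCP replicates 1 and 2. The CCCP shares lay above the untreated ones, and the exact permutation test (two-sided) gave p = 0.333, the smallest that 2 against 2 libraries allow.

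To compare genes of unequal length, counts were divided by kilobases of exon and by the same library size (RPKM). In untreated replicate 1 the core genes had a median of 80.5 RPKM, and in untreated replicate 2 one of 109.6 RPKM. In CCCP replicates 1 and 2 the core medians were 111 and 130 RPKM. The regulatory genes had medians of 68.2 and 80.6 RPKM untreated and of 85.8 and 88.2 RPKM with CCCP. Within a library the core genes spanned a ratio of 3.78 to 5.45 from lowest to highest and the regulatory genes one of 2.76 to 3.41. Psma3, an alpha subunit, was the lowest core gene in all 4 libraries (31.9 to 40.8 RPKM), on an annotated exon length of 2915 bases that sums all its transcripts. Psmb4 or Psmb1, both beta subunits without a catalytic site, was the highest (121 to 213 RPKM). In the regulatory particle Psmd11, of the lid, was lowest in every library (34.6 to 41.2 RPKM), and the ATPase genes Psmc1 or Psmc3 were highest (95.4 to 135 RPKM). The rank order was nearly the same in both groups. Over the 41 genes with a mean of at least 10 CPM, Spearman's rho of the group means was 0.993, a description across genes measured in shared libraries.

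**Figure D1:**
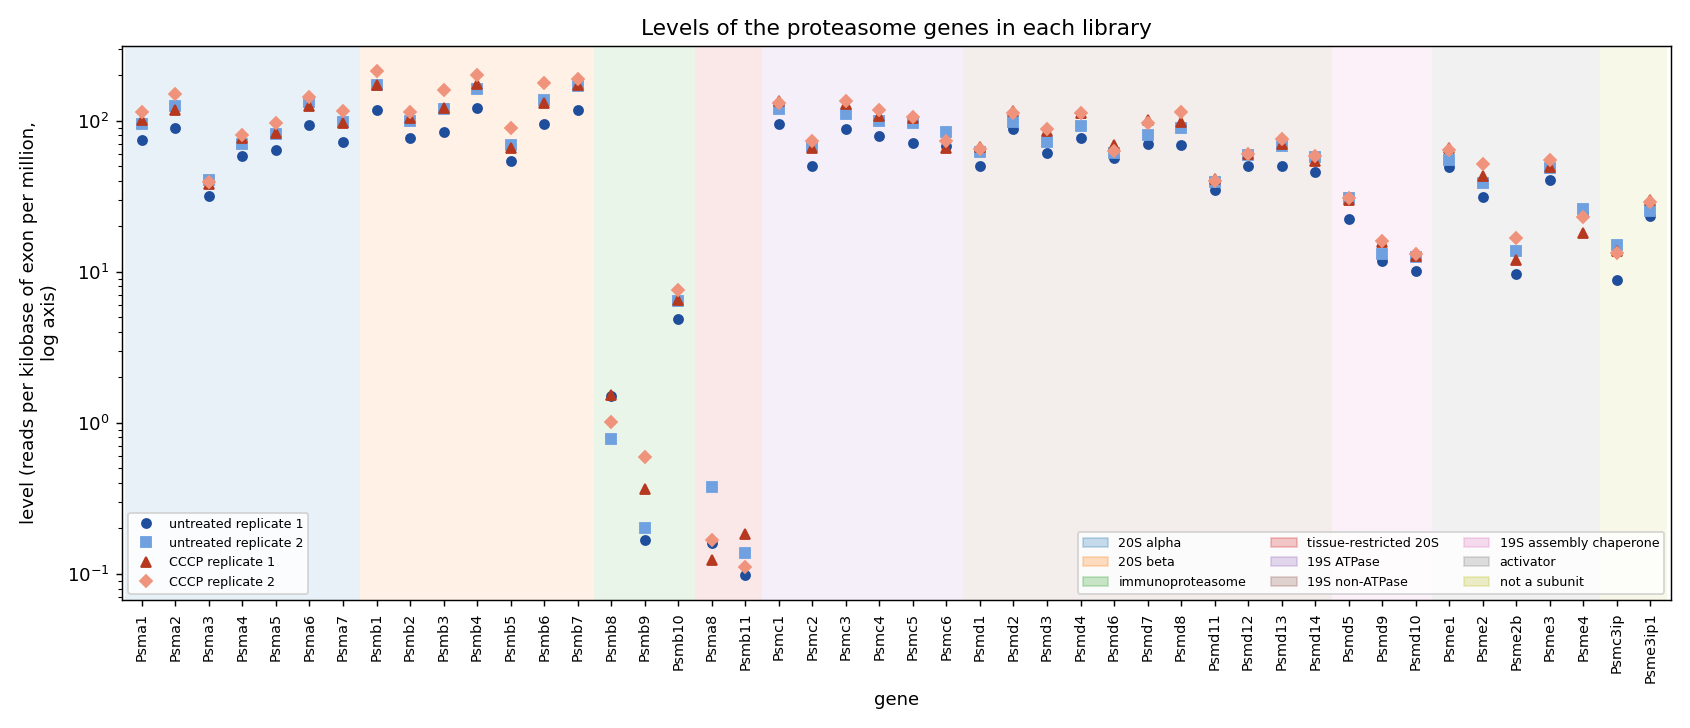
Level of each proteasome gene (RPKM, log axis) in the 4 libraries, 1 symbol per library, with shading for the gene's class. Core and regulatory genes lie between 31.9 and 213 RPKM, the immunoproteasome genes between 0.168 and 7.53 RPKM, and untreated replicate 1 is the lowest library for 42 of the 46 genes.

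The comparison of CCCP with untreated explants gave values above 0 for nearly all subunits, none of which passed the test. The log2 fold change was above 0 for 43 of the 46 genes, against 49.2% of all genes tested. The median was 0.32 (1.25-fold) over the 14 core genes and 0.30 (1.23-fold) over the 17 regulatory genes, beside -0.01 over all 19837 genes. In the quasi-likelihood test of edgeR, with p-values adjusted over all genes by Benjamini-Hochberg (BH), 0 of the 46 genes differed at 0.05, where 0% of all genes did, and the smallest adjusted p-value among them was 0.276. Without adjustment, 9 of the 46 had a p under 0.05, all higher in CCCP, against 5.45% of all genes. No proteasome gene was lower at that level, against 9.16% of all genes. DESeq2 also called 0 of the 46 (Psmb9 had no adjusted p there), against 2.99% of all genes in either direction and 0.297% called higher. Other settings called 10 with the replicate number as a block (3.80% of all genes were called higher), 5 with that block and the trend over GC content removed (1.78%) and 1 without the filter on low counts (0.673%), all higher in CCCP.

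Other genes of like exon length and level stood at the same place. Each proteasome gene was set beside the genes outside the family in the same of 10 bins by exon length and the same of 10 bins by mean CPM. The median of these like genes was 0.36 for the core genes and 0.32 for the regulatory genes. The 46 genes differed from the median of their own like genes by a median of -0.02, and 21 of the 46 lay above it. Among like genes 85.3% had a log2 fold change above 0, against 93.5% of the 46. An unadjusted edgeR p under 0.05 with higher CCCP was found in 24.6% of the like genes of all 46 and in 19.6% of the 46. For the core genes it was found in 31.2% of the like genes and in 0 of the 14. For the regulatory genes it was found in 29.4% of the like genes and in 5 of the 17. Log2 fold changes went with exon length over all genes (Spearman's rho -0.36), with a median of 0.22 in the bin of shortest genes and -0.36 in that of the longest. With the length trend removed, the median was 0.14 for the core and 0.16 for the regulatory genes.

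**Figure D2:**
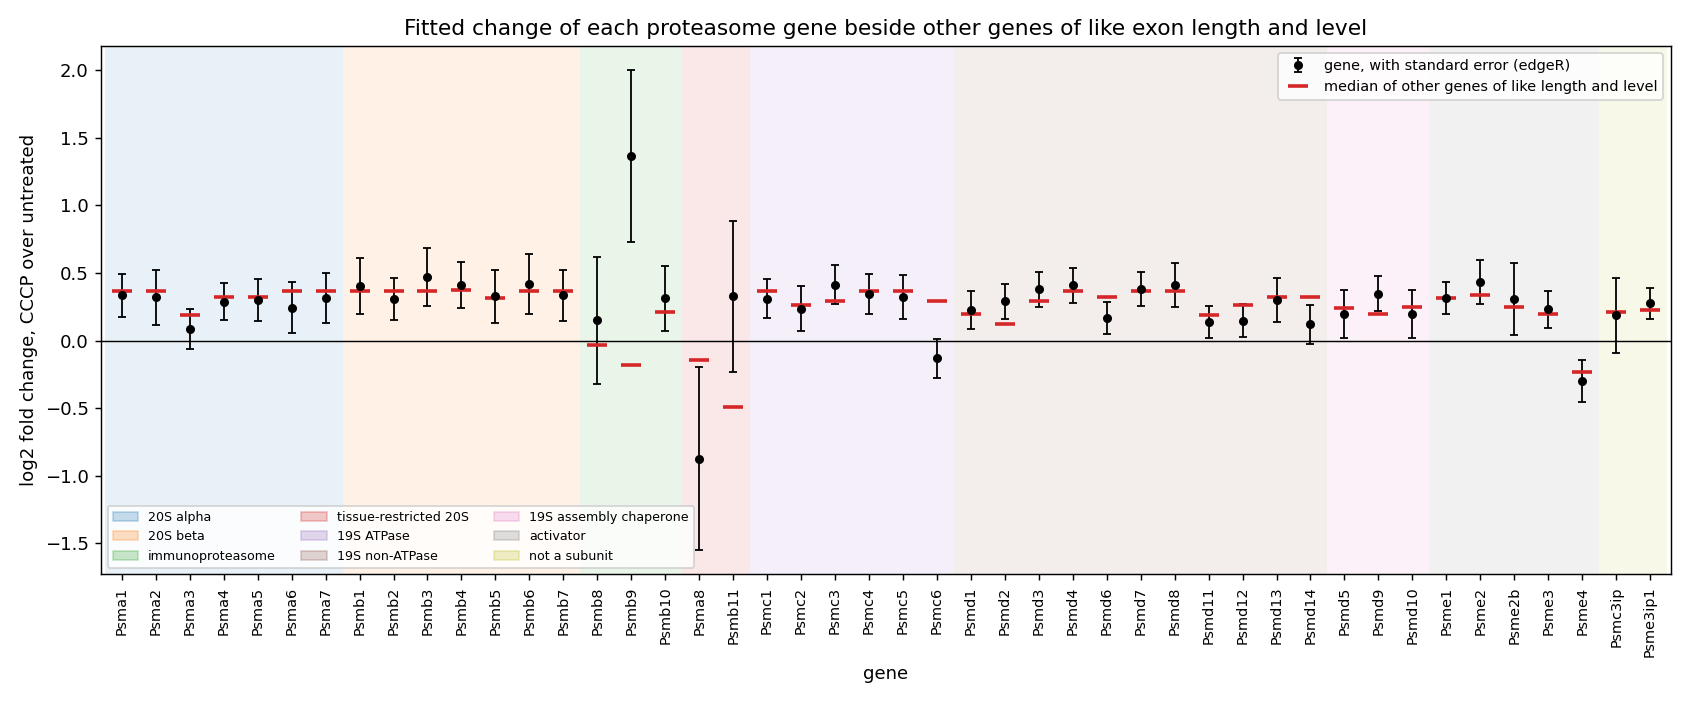
Log2 fold change of each proteasome gene (edgeR, CCCP over untreated, bars are standard errors), with a red mark at the median of other genes of like exon length and level. The core and regulatory genes follow the red marks, with Psmc6 the farthest below its mark among them.

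Much of the difference also lay between the 2 untreated libraries. The summed level of the 14 core genes was 1279.6 and 1742 CPM in untreated replicates 1 and 2, and 1742 and 2059 CPM in CCCP replicates 1 and 2. Untreated replicate 2 and CCCP replicate 1 were thus level, and 7 of the 14 core genes were higher in untreated replicate 2. Between libraries of the same number, the core sum was higher with CCCP in each case. The labels do not say what a number marks. Untreated replicate 1 was the lowest library for 14 of 14 core genes. For the 17 regulatory genes the sums were 2034 and 2474 CPM untreated and 2709 and 2759 CPM with CCCP, which did not overlap. Both CCCP libraries lay above both untreated ones for 14 of the 17 regulatory genes, 7 of the 14 core genes and 29 of all 46, against 24.0% of all genes tested. Among like genes these shares were 62.7% for the regulatory particle and 62.3% for the core. Without untreated replicate 1 the core median was 0.16 and the regulatory median 0.13, and without untreated replicate 2 they were 0.57 and 0.51.

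**Figure D3:**
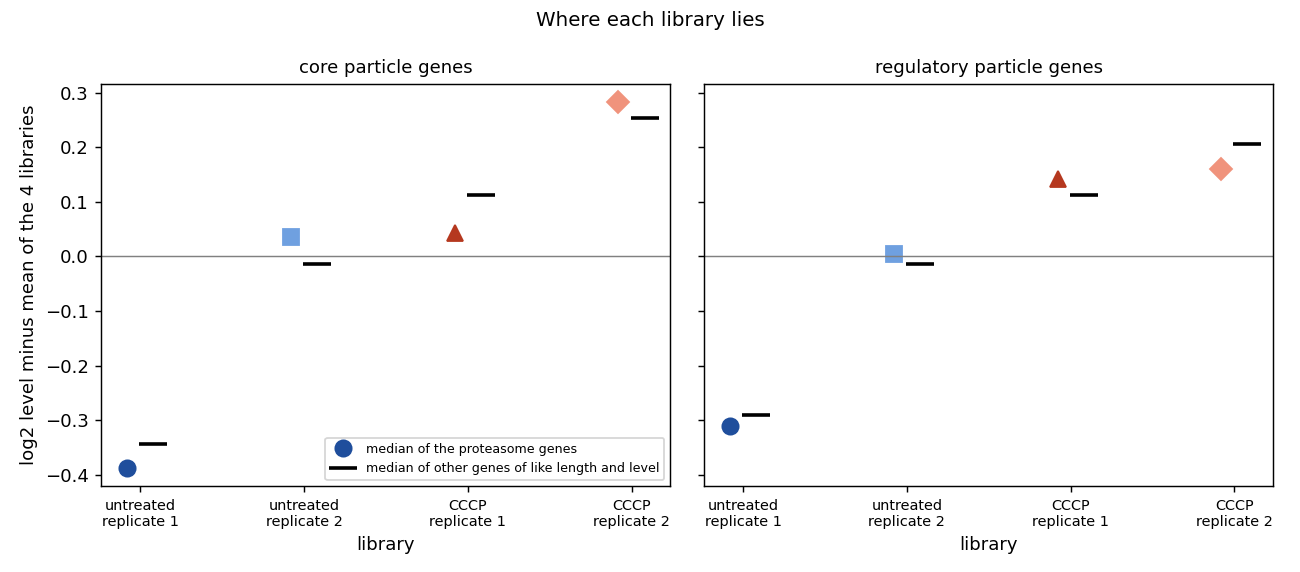
Median log2 level of the core genes (left) and regulatory genes (right) in each library, relative to the mean of the 4 libraries, with a black mark for the median of other genes of like exon length and level. Untreated replicate 1 lies at -0.39 for the core genes with like genes at -0.34, and CCCP replicate 2 at 0.28 with like genes at 0.25.

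The alpha subunits, which form the gate of the core, had log2 fold changes from 0.08 to 0.33. Psma1 had the highest, at 94.2 and 119.9 CPM untreated and 126 and 144 CPM with CCCP. The groups did not overlap. The log2 fold change of 0.33 carried a standard error of 0.156, and the BH-adjusted edgeR p was 0.380. Psma3 had the lowest, with 92.8 and 119 CPM untreated and 110.5 and 114 CPM with CCCP. Both CCCP libraries lay between the untreated ones, the log2 fold change of 0.08 had a standard error of 0.148, and the BH-adjusted edgeR p was 0.819. Psma3 shares 22.0% of its 50-base stretches with the annotated pseudogene Gm13835. Reads that map to more than 1 place were not counted, so its level is uncertain.

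The beta subunits had log2 fold changes from 0.31 to 0.47, and 5 of the 7 lay above the median of like genes, where 0 of the 7 alpha subunits did. The bins did not match GC content, whose median was 45.0% for the alpha and 52.2% for the beta genes. With the trend over GC content removed, the alpha genes ran from 0.25 to 0.71 and the beta genes from 0.18 to 0.40. Whether alpha and beta genes differ was not tested. Psmb3, a beta subunit with no active site, had the highest value of the core, with 61.3 and 87.5 CPM untreated and 88.9 and 117 CPM with CCCP. The groups were separated by a margin of 1.44 CPM between untreated replicate 2 and CCCP replicate 1. Psmb3 stood at 0.47 (standard error 0.215) with a BH-adjusted edgeR p of 0.371, and 55.8% of its 50-base stretches occur in other annotated transcripts. Psmb2 had the lowest value of the class, with 65.8 and 84.9 CPM untreated and 89.0 and 98.0 CPM with CCCP, a log2 fold change of 0.31 and a BH-adjusted edgeR p of 0.404.

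Of the 3 catalytic subunits of the constitutive core, Psmb7 alone had groups that did not overlap. Psmb5, the chymotrypsin-like subunit, had 46.9 and 60.3 CPM untreated and 57.1 and 77.4 CPM with CCCP. With overlap between groups, the log2 fold change of 0.33 (standard error 0.196) came with a BH-adjusted edgeR p of 0.476. Psmb6, the caspase-like subunit, had 103 and 148 CPM untreated and 143 and 194 CPM with CCCP, again with overlap, for a log2 fold change of 0.42 (standard error 0.222) and a BH-adjusted edgeR p of 0.425. Psmb7, the trypsin-like subunit, had 124 and 178 CPM untreated and 182 and 199.9 CPM with CCCP. The log2 fold change of 0.34 (standard error 0.188) came with a BH-adjusted edgeR p of 0.447. Psmb5 shares 57.1% of its 50-base stretches with other annotated transcripts, so its level, and the catalytic shares computed from it, are uncertain. Psmb7 shares 28.1%, with transcripts annotated to Nek6. Whether those stretches lie at a single position, where reads would still map once, was not tested. The level of Psmb7 may therefore be uncertain as well. Psmb6 is also annotated on an alternate contig, where its exons were counted a second time in the deposited length. Lengths here are those on the main chromosome, 1089 bases in place of 2125.

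Immunoproteasome transcripts were scarce. Psmb10, the counterpart of Psmb7, was the most abundant, at 4.89 and 6.44 RPKM untreated and 6.54 and 7.53 RPKM with CCCP, from 306 to 403 counts. The groups did not overlap, and Psmb10 stood at 0.31 (standard error 0.239), with a BH-adjusted edgeR p of 0.561. Psmb8, the counterpart of Psmb5, had 92 and 36 counts untreated and 91 and 45 counts with CCCP. Replicate 1 was the higher library in either group, and the log2 fold change of 0.15 (standard error 0.471, BH-adjusted edgeR p 0.903) went to -0.20 without untreated replicate 2, to -0.18 without CCCP replicate 1 and to 0.71 without untreated replicate 1.

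Psmb9, the counterpart of Psmb6, had 9 and 8 counts untreated and 19 and 23 counts with CCCP, all above the floor of 3 counts. The CCCP libraries lay above the untreated ones, and the gene passed the filter on low counts through the CCCP libraries. Its log2 fold change of 1.37 had a standard error of 0.637 and a BH-adjusted edgeR p of 0.380, and ran from 0.996 to 1.68 as each library was left out. Tap1, the peptide transporter gene that lies next to Psmb9 and shares 12.5% of its 50-base stretches in the annotation, had 4.12 and 5.24 CPM untreated and 6.30 and 8.10 CPM with CCCP, a log2 fold change of 0.62 with a BH-adjusted edgeR p of 0.352. Psmb8 and Psmb9 are annotated on 3 alternate contigs beside chromosome 17. Whether the aligner used such contigs is not given in the sources used here, and reads placed on both would not be counted.

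The make-up of the catalytic sites was read as the share of the immunoproteasome subunits in the summed RPKM of the 6 catalytic subunits. It was 2.41% and 1.95% untreated and 2.23% and 1.96% with CCCP. The means were 2.18% ± 0.324 and 2.10% ± 0.190 (SD, n = 2), a difference of -0.0772 percentage points that was smaller than the spread, with p = 1 in the exact permutation test (two-sided). Within the pair of Psmb6 and Psmb9, Psmb9 made up 0.177% and 0.147% untreated and 0.278% and 0.332% with CCCP, on 8 to 23 counts of Psmb9 per library, a description with no test. Leukocytes are rich in immunoproteasomes. The summed level of 12 leukocyte markers was 209 and 177 CPM untreated and 193 and 204 CPM with CCCP, with 7 of the 12 above and 5 below 0 in log2 fold change, and their part in these values was not tested.

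The 6 ATPase genes of the base held 1 exception. Psmc6 had 119 and 147 CPM untreated and 115 and 127 CPM with CCCP. CCCP replicate 1 was the lowest library and untreated replicate 2 the highest, with overlap between the groups. Its log2 fold change of -0.13 (standard error 0.145, BH-adjusted edgeR p 0.688) was the only one below 0 among the 31 core and regulatory genes, and its difference of -0.43 from the median of its like genes was the lowest among them. Psmc6 also had the lowest GC content of all proteasome genes with a value (36.97%). With the trend over GC content removed, its log2 fold change was 0.36, and without untreated replicate 2 it was 0.06. The other 5 ATPase genes had values from 0.24 to 0.41. Psmc3 was the highest, with 143 and 180.3 CPM untreated and 209.7 and 221 CPM with CCCP. The groups did not overlap, and Psmc3 stood at 0.41 (standard error 0.147) with a BH-adjusted edgeR p of 0.301.

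Over the 40 genes of at least 10 CPM with a GC value, the log2 fold change went with the GC content of the transcript (Spearman's rho 0.713, across genes of shared libraries), as it did over all genes with a value (rho 0.392 over 17929). GC content was that of the longest annotated coding transcript, which can differ from the exons counted. For Psma2 that transcript has 2911 bases against 946 bases of counted exon, and for Psmc6 2234 against 1739. The GC values of both, and their values with the GC trend removed, are therefore uncertain. The 3 of lowest GC content were Psmc6, Psma2 (39.4%) and Psma3 (40.8%). They stood at -0.13, 0.32 and 0.08, so Psma2 was as high as the core median. With the GC trend removed they stood at 0.36, 0.71 and 0.41, and the median was 0.34 for the core and 0.25 for the regulatory genes.

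**Figure D4:**
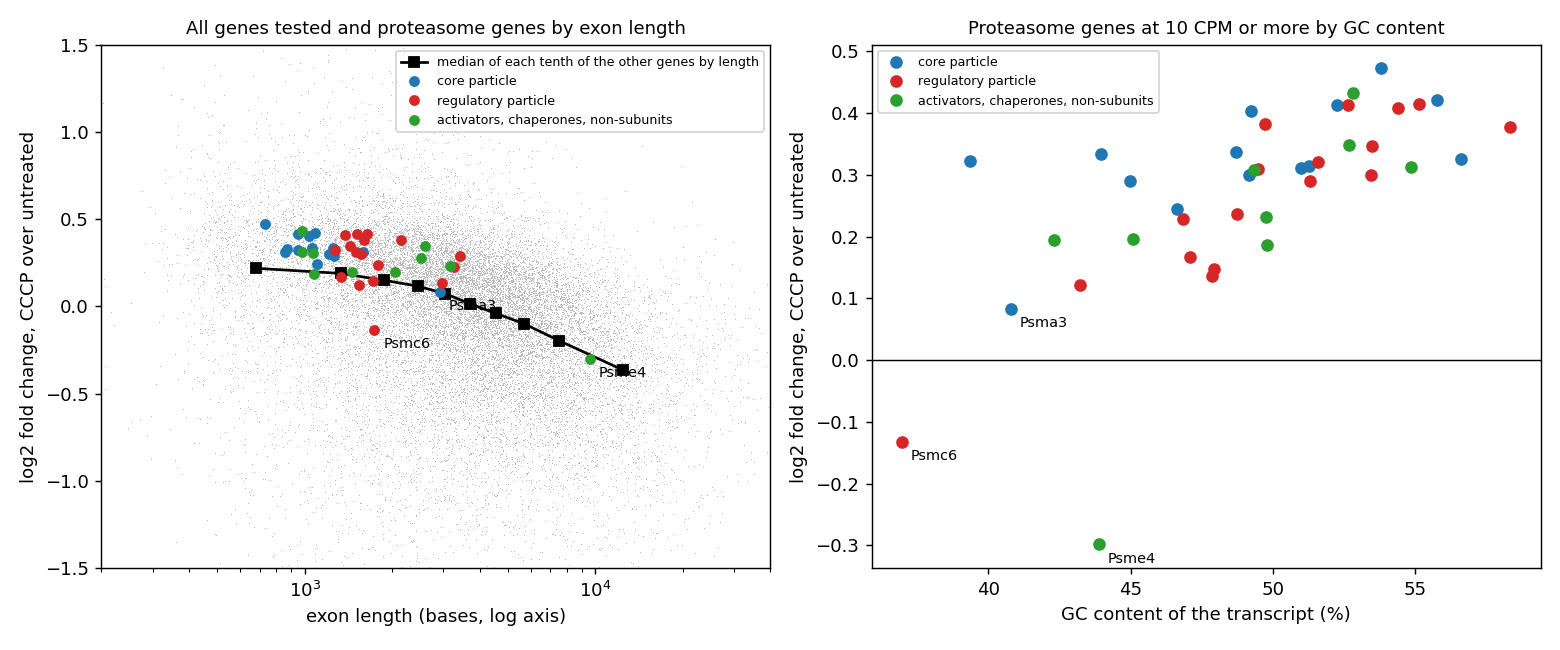
Left, log2 fold change against exon length (log axis) for all genes tested (grey, as far as the axis reaches), the medians of 10 bins by length of the genes outside the family (squares), and the proteasome genes of at least 10 CPM. Right, the 40 of these with a GC value against GC content, where Psmc6 (36.97% GC, -0.13) and Psme4 (43.9% GC, -0.30) lie below 0.

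The 11 non-ATPase genes all had values above 0, from 0.12 to 0.41. Psmd8, a lid subunit, was the highest, with 105 and 136 CPM untreated and 149 and 172 CPM with CCCP, a log2 fold change of 0.41 (standard error 0.164) and a BH-adjusted edgeR p of 0.334. Psmd14, the deubiquitinase that removes ubiquitin chains as the substrate enters, was the lowest, with 70.6 and 88.7 CPM untreated and 83.8 and 89.4 CPM with CCCP. With overlap between groups, the log2 fold change of 0.12 (standard error 0.144, BH-adjusted edgeR p 0.715) was -0.03 with the length trend removed. The 2 smallest adjusted p-values of the family, 0.276 each in edgeR, belonged to Psmd4 and Psmd7, named for that after their values were seen. Psmd4, a ubiquitin receptor, had 106 and 127 CPM untreated and 154 and 155 CPM with CCCP (log2 fold change 0.41, standard error 0.132). Psmd7, which pairs with Psmd14 in the lid, had 112 and 129 CPM untreated and 161 and 154 CPM with CCCP (0.38, standard error 0.124). Neither shares a 50-base stretch with another annotated transcript. Psmd2, a scaffold subunit of the base, named after its values were seen, was the most abundant transcript of the regulatory particle by CPM. It had 301 and 337 CPM untreated and 397 and 382 CPM with CCCP, and its log2 fold change of 0.29 lay 0.17 above the median of its like genes. Psmd2 shares 26.4% of its 50-base stretches with other annotated transcripts, so its level is uncertain.

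The activators cap the core in place of the regulatory particle. Psme1 and Psme2 form the interferon-inducible cap. Psme2 had 30.4 and 37.8 CPM untreated and 41.9 and 50.1 CPM with CCCP, the highest log2 fold change of the class (0.43, standard error 0.165, BH-adjusted edgeR p 0.321). It shares 59.3% of its 50-base stretches with Psme2b, a single-exon copy on chromosome 11 with 512 to 652 counts, so the counts of both are uncertain. Psme1, also named after its values were seen, had 48.6 and 54.0 CPM untreated and 64.6 and 62.8 CPM with CCCP (log2 fold change 0.31), and Psme3, a nuclear activator, had a log2 fold change of 0.23.

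Psme4, the large activator PA200 known for histone degradation, went the other way. It had 235 and 248 CPM untreated and 171 and 221 CPM with CCCP, so both CCCP libraries lay below both untreated ones, as they did for 24.8% of all genes. It was the only one of the 46 to do so. The log2 fold change of -0.30 (standard error 0.155) had a BH-adjusted edgeR p of 0.418. Its exon length of 9564 bases is the longest of the family, and the median of its like genes was -0.23. With the length trend removed its log2 fold change was -0.04.

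Of the chaperones of regulatory particle assembly, Psmd9 had a log2 fold change of 0.35, Psmd5 one of 0.20 and Psmd10, known as gankyrin, one of 0.20, with BH-adjusted edgeR p-values from 0.310 to 0.629. The tissue-restricted core subunits were near the floor of detection. Psma8 had 16 and 28 counts untreated and 12 in each CCCP library, and its log2 fold change of -0.87 (standard error 0.676, BH-adjusted edgeR p 0.566) was the lowest of the 46. Psmb11 had 17 to 38 counts and a log2 fold change of 0.33 (standard error 0.557, BH-adjusted edgeR p 0.809). Psmc3ip had 474 to 721 counts and a log2 fold change of 0.19, and Psme3ip1 had 2370 to 3661 counts and one of 0.28.

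The wider proteasome pathway was read from a list of 49 genes outside the name pattern, of which 48 could be tested. In edgeR 0 of the 48 passed, 40 had a log2 fold change above 0 and 8 below, and the median was 0.17, on a median exon length of 3145 bases. At an unadjusted p under 0.05 there was 1 higher gene and 2 lower ones, against 5.45% and 9.16% of all genes. Nfe2l1, the regulator of subunit transcription, had 233 and 242 CPM untreated and 284 and 258 CPM with CCCP. Its groups did not overlap, and the log2 fold change of 0.19 came with a BH-adjusted edgeR p of 0.493. Pomp, the maturation factor of the core, had 44.4 and 52.0 CPM untreated and 60.2 and 51.9 CPM with CCCP, for a log2 fold change of 0.22. All 6 genes of core assembly and inhibition on the list lay above 0 with a median of 0.28. The medians of their like genes ran from 0.06 for Psmf1 to 0.32 for Pomp. The 6 genes differed from these by -0.10 (Pomp) to 0.20 (Psmf1). Adrm1, a ubiquitin receptor of the regulatory particle that carries another name, had a log2 fold change of 0.27 and a BH-adjusted edgeR p of 0.430.

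Among the pathway genes with the smallest p-values, Rps27a, a ribosomal protein fused to ubiquitin, had 558 and 488 CPM untreated and 756 and 952 CPM with CCCP. Its log2 fold change was 0.71 with a BH-adjusted edgeR p of 0.208, and DESeq2 called it (adjusted p 0.00651). The median of its like genes was 0.37. Rps27a stood at 0.47 with the length trend removed (BH-adjusted edgeR p 0.395) and at 0.70 with the GC trend removed (BH-adjusted edgeR p 0.382). Vcp, the segregase that hands ubiquitylated proteins to the proteasome, had a log2 fold change of 0.31 and a BH-adjusted edgeR p of 0.353. On the lower side, the ubiquitin ligase Ube3a had 178 and 165 CPM untreated and 107 and 119 CPM with CCCP, a log2 fold change of -0.60 with a BH-adjusted edgeR p of 0.175, and DESeq2 called it as well (adjusted p 0.0102). The ubiquitin-activating enzyme Uba6 stood at -0.54 and the proteasome adaptor Ecpas at -0.25, with BH-adjusted edgeR p-values of 0.272 and 0.361. Ube3a and Ecpas have long exons, of 9495 and 14147 bases. With the length trend removed, Ube3a stood at -0.34, Uba6 at -0.45 and Ecpas at 0.11. With the GC trend removed, Ube3a stood at -0.11 (BH-adjusted edgeR p 0.744), Uba6 at -0.07 and Ecpas at -0.07. Ifng had 0 counts in all 4 libraries, which allows up to 3 counts or 0.0827 CPM, while Irf1, a transcription factor of the interferon response, had a log2 fold change of 0.37 (BH-adjusted edgeR p 0.473).

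**Figure D5:**
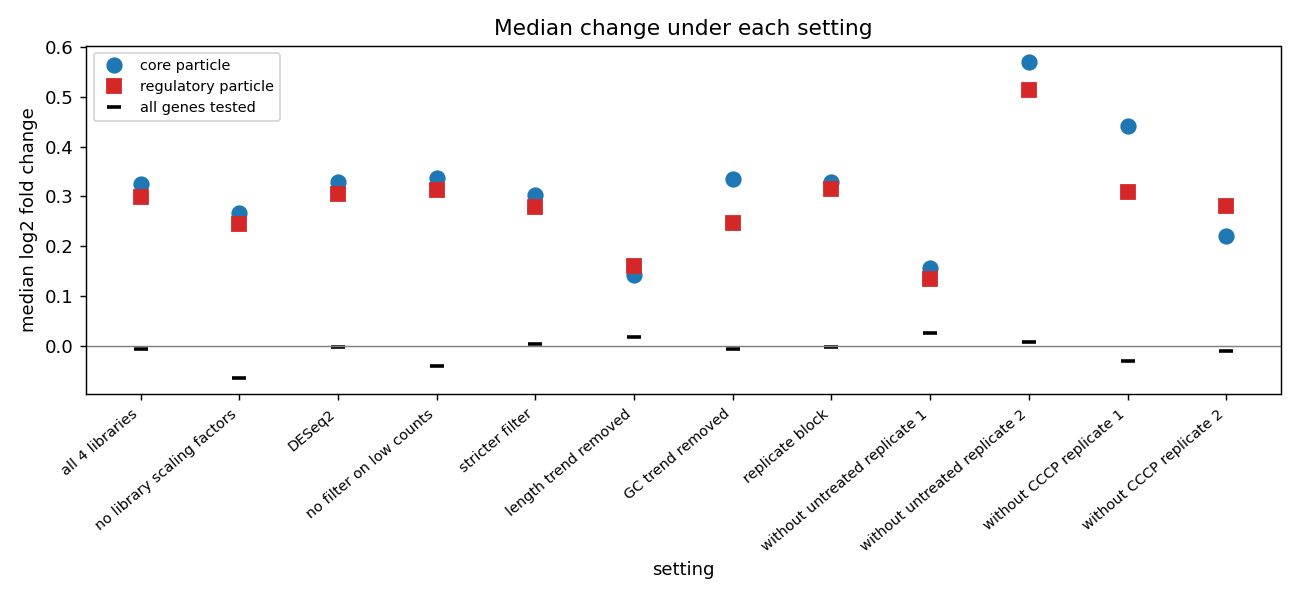
Median log2 fold change of the core genes, the regulatory genes and all genes tested under each setting. The core median runs from 0.14 with the length trend removed to 0.57 without untreated replicate 2, and lies above the median of all genes in each setting shown.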

How the data were processed

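Poly(A) RNA of 2 untreated and 2 CCCP libraries was read. Per the file headers, the authors ran featureCounts 2.0.3 on the mm10 RefSeq annotation and deposited its unnormalized read counts, with no strand option and no counting of multi-mapping reads. HISAT2 and SAMtools are named in the submitters' processing notes. The headers set no option to count pairs as fragments, so mates count singly. The labels describe a directional kit. Strand was not used, so overlapping genes on opposite strands are uncertain. Groups came from sample titles, and the column header of untreated replicate 1 differs from its title by 1 letter.

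edgeR 4.0.16 (R 4.3.3; quasi-likelihood test, TMM scaling, filterByExpr with a minimum count of 10 and total of 15, group as the sole term) was fitted on all genes, with adjustment over 19837 genes. Standard errors are the log2 fold change over the square root of F. DESeq2 1.42.0 was an alternative. Scripts were tested on simulated data. Exon lengths were recomputed on the main chromosomes. Like genes were taken from 10 bins of length by 10 of mean CPM. GC content and shared stretches of 50 bases came from GENCODE M21 transcripts, which do not cover unannotated copies. For each gene the longest transcript was used, a coding one where there was any, and it can differ from the exons counted. The replicates of a group were not the same library (chi-square per degree of freedom at least 37.5). Genes given in every library were the 6 catalytic subunits and the highest and lowest log2 fold change of each class at a mean of at least 10 CPM, with 3 fixed pathway genes and the 3 smallest p-values in each direction. Members and lists were chosen with earlier results of these data known. Floors cover counting error only, while standard errors also take in the spread between libraries as edgeR estimates it.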

Additional observations from a re-analysis of the deposited data

How the results depend on the processing

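Over all genes the number called was 0 as reported, 594 in DESeq2, 1107 without a filter on low counts (32261 genes tested), 10 to 46 with 1 library left out, 2118 with the replicate block, 1404 with the replicate block and the length trend removed, and 1062 with the replicate block and the GC trend removed. The removal of GC trends was chosen after seeing the data. Proteasome genes called were 0 in DESeq2, 1 without the filter (Psmb3, adjusted p 0.0416, against 0.673% of all genes called higher), 10 with the replicate block (against 3.80%), 0 with that block and length correction and 5 with that block and GC correction (against 1.78%), all higher in CCCP. Labels give the groups shared replicate numbers and do not say what a number marks. Same-numbered libraries deviated together (r = 0.36 over 19837 genes), but with 2 pairs the libraries are taken to share only a number. The 10 genes called with the block were Psmb1, Psmb3, Psmb4, Psmb6, Psmc3, Psmd3, Psmd4, Psmd7, Psmd8 and Psme2, and the 5 with the block and GC were Psma1, Psma2, Psma3, Psma4 and Psmb1. The cause was not tested.

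With 1 library left out, the core median ran from 0.16 to 0.57 and the regulatory median from 0.13 to 0.51. The immunoproteasome median, over 3 genes, was 0.31 with all 4 libraries and ran from 0.42 to 0.71 with 1 left out. Its middle gene was Psmb8 in some of these fits and Psmb10 in others, so that range does not show a steady value. All these medians stayed above 0. Signs changed for single genes. Psmb8 was -0.050 with the length trend removed, -0.00041 with the replicate block as well, -0.18 without CCCP replicate 1 and -0.20 to 0.71 over all libraries left out in turn. Psmc6 was 0.36 with the GC trend removed, 0.37 with the block as well, and -0.27 to 0.063 with 1 library left out, above 0 without untreated replicate 2. Psmd14 was -0.027 with the length trend removed, -0.025 with the block as well and -0.025 to 0.33 with 1 library left out, where Psma3 ran from -0.076 to 0.30, both below 0 without untreated replicate 1. Pomp was -0.0043 with block and length correction, and Ecpas 0.11 with the length trend removed, with or without the block. Of 324 alternatives for the 25 named genes, 290 kept sign and call, 20 passed the threshold and 14 changed sign. Without TMM factors the median of all genes was -0.07 and that of the core 0.27. Depth limited Psmb8, Psmb9, Psma8 and Psmb11, all under 100 counts per library.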
